A study of Mus musculus with 17 samples.

Results

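The genes described here carry fatty acids into skeletal muscle and burn them there: the uptake proteins, the lipid droplet enzymes, the carnitine shuttle, the mitochondrial beta-oxidation cycle and a pair of regulators. They were listed by name, and a listed gene was kept when a probe set of the array carried its symbol alone, the brightest such probe set standing for the gene. Of 37 listed genes 35 were kept, out of 12393 genes measured this way. Cpt1b, the muscle form of carnitine palmitoyltransferase, was left out because its probe set is listed with several symbols, and Acsl1 had no probe set listed under its name.

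The 17 Affymetrix arrays each held RNA from the tibialis anterior of the lower leg, largely made of fast fibres, of mice that the labels give as males aged 56 days, with muscle from both legs pooled. Of these, 6 arrays held normal muscle, for which the labels name no strain. A further 6 held muscle of mdx mice, which lack dystrophin, the protein that links the cytoskeleton of the fibre to its membrane. The other 5 held muscle of fiona mice, a transgenic line that overproduces utrophin, a relative of dystrophin, in mdx animals, so that the mdx mutation is shared by the mdx and fiona groups. The promoter of the transgene and the number of founder lines are not given in the sources used here. Each array is labelled a biological replicate, and their number limits the precision of every value below.

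Values are deposited log2 expression values, and a difference of 1 on this scale is a 2-fold change. The arrays had medians between 3.52 and 3.82. The array median over 15 control probe sets with no target in the sample, called the control level below, lay between 2.64 and 2.99, with averages of 2.77 (normal), 2.70 (mdx) and 2.89 (fiona). On its brightest probe set Dmd, the dystrophin gene, lay between 7.42 and 9.29 in normal muscle, between 4.12 and 6.30 in mdx and between 4.20 and 6.70 in fiona muscle. On 2 dim probe sets of Utrn, the utrophin gene, 0 of the 12 normal and mdx arrays lay above the control level and 4 of 5 fiona arrays did on each, with each fiona array above it on at least 1 of them. The brightest probe set of Utrn did not set fiona apart. It had medians of 6.84 (normal), 7.02 (mdx) and 6.63 (fiona), and its fiona arrays ran from 5.21 to 7.36. Against the labelled sex, 7 arrays had a female pattern of the X-inactivation transcript and Y-linked genes: 1 normal, 2 mdx and 4 fiona arrays, so that fiona array 4 was the only fiona array with a male pattern. After removal of the group means, the largest component of the remaining variation held 42.5% of it and divided the arrays into 2 sets that no label names. Set 1 was made up of the arrays numbered 3, 4 and 5 of both normal and mdx muscle with fiona arrays 1 and 4, and set 2 of the other 9. In fits to male-pattern arrays alone, fiona is therefore a single array, assumed to vary like the other groups, and each set alone holds 2 or 3 arrays of fiona and 3 of each other group. The fits in which a call was lost are named beside it, apart from those with the replicate number as a block.

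Fatty acids reach muscle in lipoproteins and bound to albumin. Lipoprotein lipase frees them from triglyceride at the capillary wall, transporters bring them into the fibre, and they are either stored in lipid droplets or moved as carnitine esters into mitochondria, where each turn of beta-oxidation removes an acetyl unit and passes electrons through the electron transfer flavoprotein to the respiratory chain. Many of these genes are known targets of the PPAR receptors and of the oestrogen-related receptors with the coactivator PGC-1alpha, which bind DNA elements built around the hexamer AGGTCA.

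The sequences just upstream of the start sites are shown for genes whose RNA differed between groups and that hold this hexamer. RefSeq's promoter table (GRCm38.p6) held 31 of the 35 genes. AGGTCA or its complement TGACCT lay within the 250 bases before the start in 7 of the 31 genes, which is 22.6%, against 15.8% of the 27025 genes in the table: Acadm, Acadvl, Cd36, Cpt1a, Echs1, Lpin1 and Plin5. Among the 7 genes with a table entry that passed the test in a comparison below, 4 held it, against 3 of the other 24. These counts pool the calls of both comparisons, Lpl and Angptl4 passed but have no entry, and the split was not tested. A direct repeat with any base between the copies, AGGTCANAGGTCA, was found in 0 of the 31 genes and in 0.0407% of all genes, and the extended form TCAAGGTCA in 0 of the 31 and in 0.422% of all; both strands were searched for each, and both longer forms contain the hexamer. A match is a description of the letters and not a binding site. In the sequences that follow, read 5′ to 3′ on the strand of the gene, capitals mark the hexamer.
Acadm, chr3:153944644-153944893, minus strand: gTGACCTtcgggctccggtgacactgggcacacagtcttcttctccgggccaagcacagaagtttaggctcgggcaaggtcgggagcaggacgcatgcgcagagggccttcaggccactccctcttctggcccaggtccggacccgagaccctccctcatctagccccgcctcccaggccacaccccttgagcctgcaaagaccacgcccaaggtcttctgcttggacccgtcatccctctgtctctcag
Lpin1, chr12:16610967-16611216, minus strand: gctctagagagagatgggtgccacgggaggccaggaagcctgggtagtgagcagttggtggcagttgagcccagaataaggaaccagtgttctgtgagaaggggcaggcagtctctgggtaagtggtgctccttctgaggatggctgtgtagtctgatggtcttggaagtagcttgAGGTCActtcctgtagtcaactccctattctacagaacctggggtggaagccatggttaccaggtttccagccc
Plin5, chr17:56117549-56117798, minus strand: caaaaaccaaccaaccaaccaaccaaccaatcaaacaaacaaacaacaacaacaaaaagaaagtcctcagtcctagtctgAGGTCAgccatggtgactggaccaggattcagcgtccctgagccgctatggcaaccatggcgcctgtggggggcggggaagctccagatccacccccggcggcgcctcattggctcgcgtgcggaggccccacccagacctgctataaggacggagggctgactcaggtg
Acadvl, chr11:70015429-70015678, minus strand: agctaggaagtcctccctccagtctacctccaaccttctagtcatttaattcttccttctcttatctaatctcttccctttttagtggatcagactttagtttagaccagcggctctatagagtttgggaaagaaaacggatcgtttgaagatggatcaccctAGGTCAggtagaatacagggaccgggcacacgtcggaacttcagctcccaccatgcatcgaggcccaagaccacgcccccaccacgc

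In Acadm the hexamer lay 249 to 244 bases before the start, at the far end of the window. It lay 74 to 69 bases before the start in Lpin1, 170 to 165 in Plin5 and 87 to 82 in Acadvl. The subunits of the mitochondrial trifunctional protein, Hadha and Hadhb, are read in opposite directions from starts 272 bases apart, and their upstream windows overlap by 228 bases. This shared stretch is shown because the members of the pair are compared below, and it held 0 copies of the hexamer.
Hadha and Hadhb, between the starts, chr5:30154981-30155252, plus strand: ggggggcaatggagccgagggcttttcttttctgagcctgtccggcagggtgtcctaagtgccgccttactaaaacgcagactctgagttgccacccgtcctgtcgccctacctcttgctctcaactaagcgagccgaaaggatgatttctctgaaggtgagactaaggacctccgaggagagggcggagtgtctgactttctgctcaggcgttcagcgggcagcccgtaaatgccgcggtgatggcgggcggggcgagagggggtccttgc

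In mdx muscle 34 of the 35 genes had a lower mean than in normal muscle, and 4 passed the test: lipoprotein lipase (Lpl), perilipin 5 (Plin5), lipin 1 (Lpin1) and medium-chain acyl-CoA dehydrogenase (Acadm). The 4 were 11.4% of the 35, against 1.44% of all genes, and the lower means were 97.1% against 67.8%. In fiona muscle 33 of the 35 means lay above those of mdx, with 7 genes higher past the test, led by Lpl and the very-long-chain dehydrogenase Acadvl, and with 1 lower, the lipase inhibitor Angptl4. The 7 were 20% of the 35, below the 32.1% of all genes called higher, and the 1 was 2.86% against 6.79%. Higher means made up 94.3% of the 35 and 66.8% of all genes. Between fiona and normal muscle 0 of the 35 passed. The median difference over the 35 genes was -0.46 for mdx minus normal, 0.32 for fiona minus mdx and -0.14 for fiona minus normal, where all 12393 genes had medians of -0.04, 0.08 and 0.04. The comparisons of mdx with normal and of fiona with mdx use the same mdx arrays, so opposite directions in them are not independent of each other. In whole muscle, fewer fibres and less RNA per fibre cannot be told apart.

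**Figure D1:**
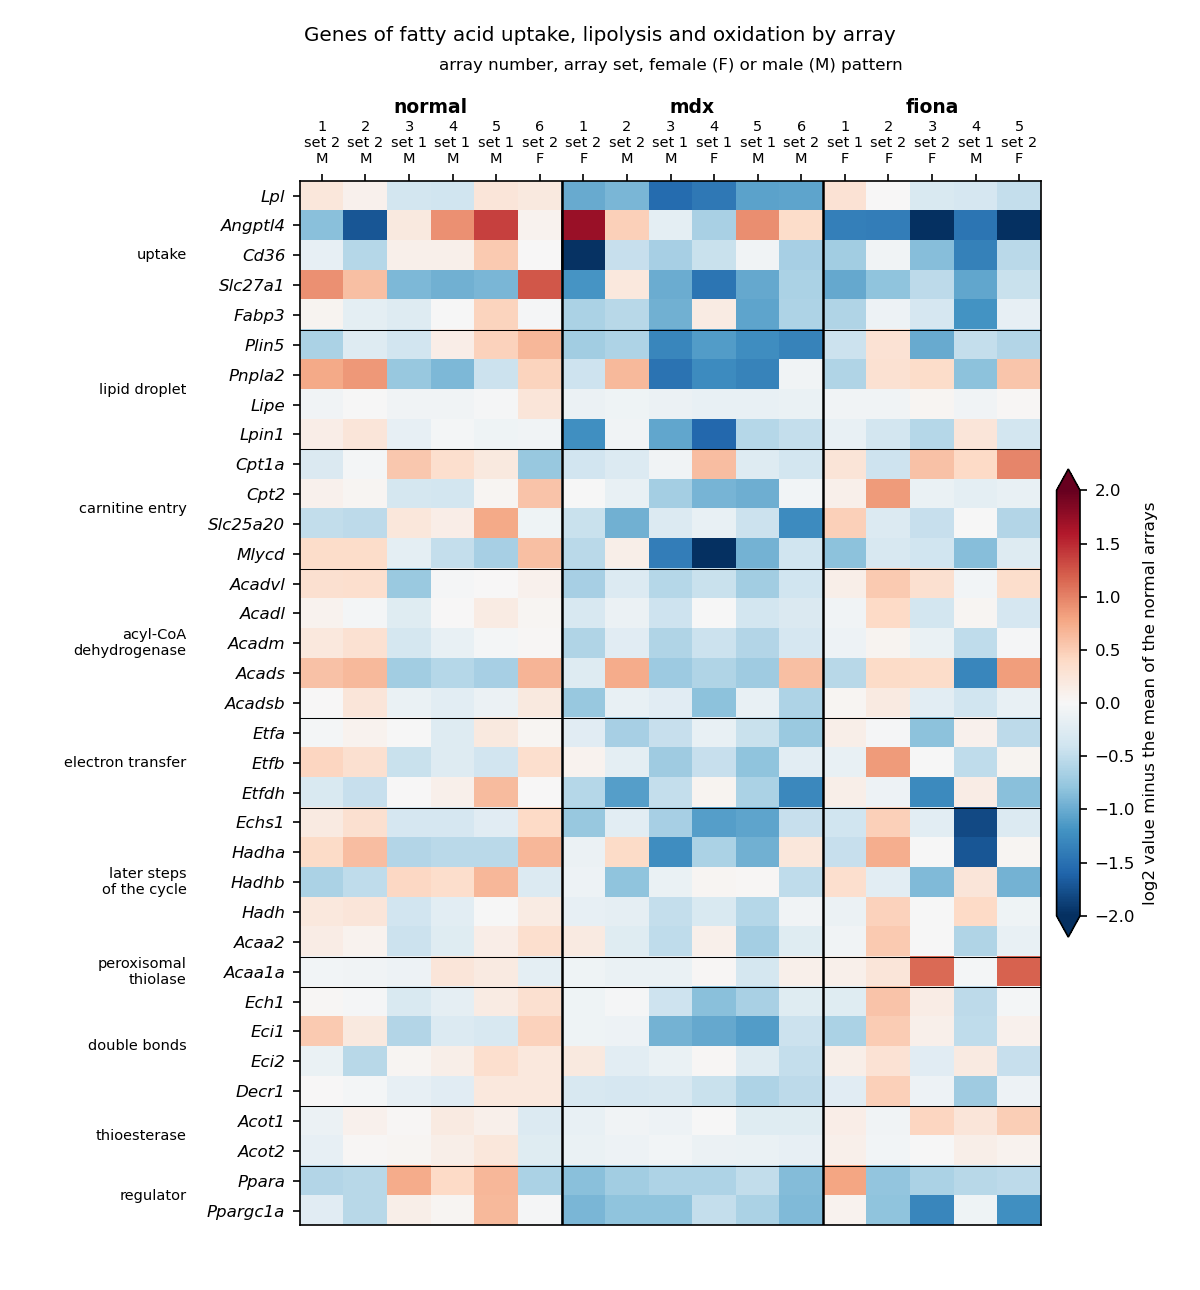
Log2 value of each gene on each of the 17 arrays minus the mean of the 6 normal arrays; rows are the 35 genes by role, columns are arrays by group, with the array number, array set and sex pattern, and colours run from -2 (blue) to 2 (red), with values beyond that shown at the end colours. The Lpl row is blue on all 6 mdx arrays, and the Angptl4 row is blue on all 5 fiona arrays.

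The test was limma with Benjamini-Hochberg adjustment over all 12393 genes, and genes with an adjusted p under 0.05 were called. For mdx against normal, the 4 genes called lower were 11.4% of the 35, where 1.44% of all genes were called lower, and 0 of the 35 were called higher, where 3.22% of all genes were. At 2-fold or more, 2 genes (Lpl and Plin5) were called lower, where 0.452% of all genes were, and 0 higher, where 2.25% were. Negative differences made up 97.1% of the 35 and 67.8% of all genes. Unadjusted p-values under 0.05 were found for 19 of the 35, or 54.3%, against 17.3% of all genes. The groups did not overlap for 3 genes, all lower in mdx (Lpl, Lipe and Decr1), which is 8.57% against 1.98% of all genes. With each array centred on its median, the calls over all genes changed from 399 higher and 179 lower to 516 and 1501, and 9 of the 35 genes were called lower, 25.7% against 12.1% of all genes. The genes share their arrays and are not independent of each other.

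For fiona against mdx, the 7 genes called higher were 20% of the 35, and 32.1% of all genes were called higher, so this count did not stand above the background. Of the 9267 genes above the control level on at least 5 arrays, which include all 35, 15.3% were called higher in a fit to those alone, where 5 of the 35 were. With each array centred on its median, 1417 of all genes (11.4%) were called higher and 753 lower in place of 3977 and 841, and 4 of the 35 were called higher. The control level itself was higher on fiona than on mdx arrays, as given above, and its part in these calls was not tested. Positive differences made up 94.3% of the 35 and 66.8% of all genes, and unadjusted p-values under 0.05 were found for 12 of the 35, or 34.3%, against 48.8% of all genes. The 1 gene called lower was 2.86% of the 35, against 6.79% of all genes. At 2-fold or more, 1 gene was called higher, where 0.234% of all genes were, and 1 lower, where 3.30% were. The groups did not overlap for 4 genes with higher fiona values (Lpl, Lipe, Acadvl and Acot2), 11.4% against 30.2% of all genes, and for 1 with lower values (Angptl4), 2.86% against 2.40%.

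**Figure D2:**
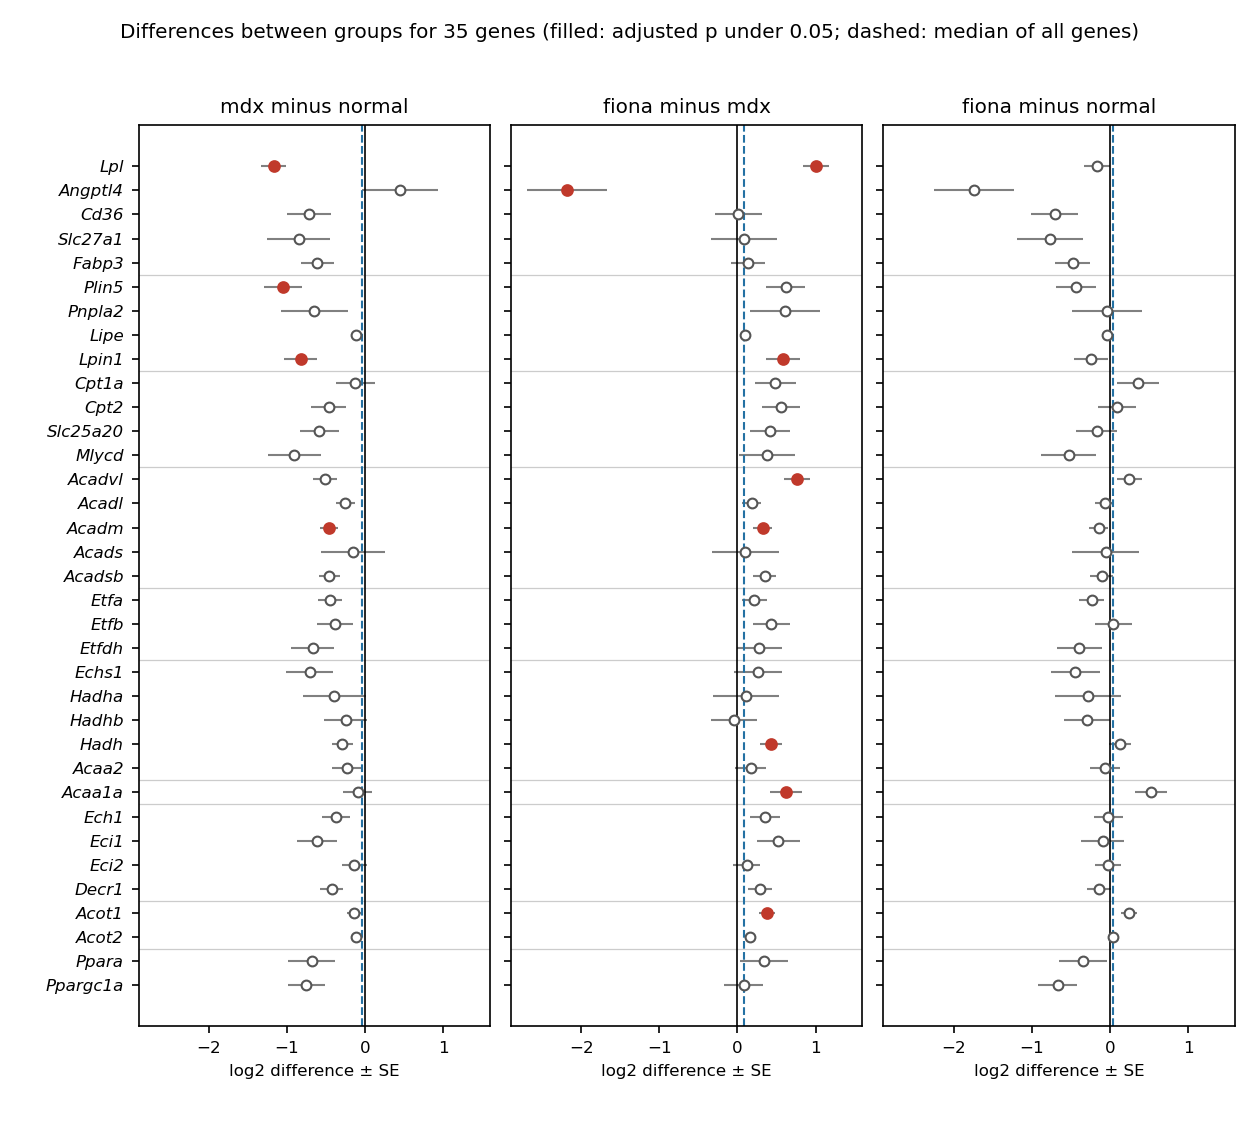
Log2 difference between group means with its standard error for each of the 35 genes in 3 comparisons (horizontal axis), filled where the adjusted p was under 0.05; the dashed line marks the median of all 12393 genes. In the first panel 34 of 35 points lie left of 0, and 4 are filled; in the third panel 0 are filled.

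Uptake begins with Lpl, the lipase that frees fatty acids from circulating lipoproteins. Its 6 normal arrays ran from 12.33 to 12.96 with a median of 12.86, and its 6 mdx arrays from 11.17 to 11.80 with a median of 11.65. The fiona arrays 1 to 5 read 13.00, 12.72, 12.41, 12.38 and 12.23. Every mdx array thus lay below every normal and every fiona array, and the normal and fiona ranges overlapped almost throughout. The means ± SD were 12.72 ± 0.30 (n = 6), 11.55 ± 0.25 (n = 6) and 12.55 ± 0.31 (n = 5). Lpl fell by 1.17 on the log2 scale in mdx (2.25-fold, SE 0.16, adjusted p 0.000335) and rose by 1.01 from mdx to fiona (2.01-fold, SE 0.17, adjusted p 0.00228). The difference between fiona and normal was -0.17 (SE 0.17, adjusted p 0.572). Its second probe set gave -1.33 and 1.13 for the first 2 comparisons (adjusted p 0.00283 and 0.0125 over all probe sets). Within array sets 1 and 2 the mdx difference was -1.18 and -1.17. The fiona-minus-mdx difference was 1.32 in set 1 and 0.73 in set 2, where the adjusted p was 0.050, and it was 0.82 (adjusted p 0.133) on male-pattern arrays alone, with fiona array 4 as the only fiona array. Lpl kept both calls when any of the 17 arrays was left out.

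Angptl4 encodes an inhibitor of lipoprotein lipase. On its brightest probe set the normal arrays ran from 3.31 to 6.38 with a median of 5.15 and the mdx arrays from 4.36 to 6.74 with a median of 5.44. Fiona arrays 1 to 5 read 3.64, 3.63, 2.77, 3.56 and 2.75. All fiona arrays lay below all mdx arrays, 2 of them at or under the control level of their array, and the lowest normal array lay within the fiona range. The mean was 5.01 ± 1.13, 5.46 ± 0.84 and 3.27 ± 0.47 in normal, mdx and fiona muscle. Angptl4 was lower in fiona than in mdx by 2.19 as deposited (SE 0.51, adjusted p 0.0135), and by at least 2.11, or at least 4.32-fold, when the 2 dim arrays were set to their control level. The call was kept when any of the 17 arrays was left out. It was lost within either array set (-1.45 in set 1 with adjusted p 0.0779, -2.82 in set 2 with adjusted p 0.0728) and on male-pattern arrays alone (-1.86, adjusted p 0.273). For mdx minus normal the difference was 0.44 (SE 0.49, adjusted p 0.552), and its sign differed between the sets, -0.79 in set 1 and 1.68 in set 2. A second, dim probe set of Angptl4, with group means between 3.23 and 3.49, was 0.26 higher in fiona than in mdx (adjusted p 0.0130), against the direction of the bright one.

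The other uptake genes were not called on their brightest probe sets. Cd36, the scavenger receptor that serves as the main fatty acid translocase, averaged 10.82 ± 0.36, 10.10 ± 0.65 and 10.11 ± 0.47 in normal, mdx and fiona muscle. Its differences were -0.72 for mdx minus normal (adjusted p 0.20) and 0.01 for fiona minus mdx (adjusted p 0.982). The probe sets of Cd36 did not give the same picture. The dimmest of its 3, with a normal mean of 8.91, was lower in mdx by 0.98 (adjusted p 0.0187) and higher in fiona than in mdx by 0.87 (adjusted p 0.0133), while the middle one gave -0.62 and 0.06 without a call. Fabp3, the heart and muscle fatty acid binding protein, averaged 11.96 ± 0.25, 11.35 ± 0.43 and 11.48 ± 0.44, a difference of -0.61 for mdx minus normal (adjusted p 0.130). The fatty acid transport protein Slc27a1 averaged 4.68 ± 1.03, 3.84 ± 0.58 and 3.92 ± 0.28, and 80.8% of its sum of squares within groups lay between the 2 array sets.

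At the lipid droplet, perilipin 5 couples the droplet to mitochondria and restrains its lipase. Plin5 ran from 5.67 to 6.97 with a median of 6.24 on the normal arrays and from 4.96 to 5.68 with a median of 5.12 on the mdx arrays. On fiona arrays 1 to 5 the values were 5.88, 6.59, 5.30, 5.83 and 5.72. The mdx and normal ranges overlapped only at the highest mdx array, and fiona lay between the others, overlapping both. Plin5 fell by 1.05 in mdx (2.08-fold, SE 0.24, adjusted p 0.0186), a call kept when any of the 17 arrays was left out. The difference was -1.30 in set 1 (adjusted p 0.0246) and -0.81 in set 2 (adjusted p 0.538), and on male-pattern arrays alone the adjusted p was 0.0838. For fiona minus mdx it was 0.62 (SE 0.25, adjusted p 0.0666).

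Lpin1 encodes lipin 1, a phosphatidate phosphatase of triglyceride synthesis that also acts as a coactivator of fatty acid oxidation genes. Its normal arrays ran from 11.01 to 11.41 with a median of 11.11, and its mdx arrays from 9.61 to 11.10 with a median of 10.37. The values on fiona arrays 1 to 5 were 11.02, 10.81, 10.60, 11.41 and 10.81. The mdx arrays spread more widely than the others, and only the highest of them, mdx array 2, reached into the normal range. Lpin1 fell by 0.82 in mdx (1.77-fold, SE 0.21, adjusted p 0.0338) and was 0.58 higher in fiona than in mdx (SE 0.22, adjusted p 0.0482). The first call was lost when any of 8 arrays was left out (normal arrays 1, 2, 4, 5 and 6, mdx arrays 1, 3 and 4), with adjusted p between 0.00547 and 0.0785 and differences between -0.97 and -0.68 over all 17. The second was lost for 14 of the 17 arrays and kept only without mdx array 2, mdx array 6 or fiona array 3, with adjusted p between 0.0149 and 0.117. Within array set 2 the fiona-minus-mdx difference was 0.16, against 1.10 in set 1. The mdx arrays 1 and 4, with the lowest Lpin1 values, are the pair with a female pattern, and with the sex pattern as a covariate the differences were -0.73 (adjusted p 0.0146) and 0.85 (adjusted p 0.00948). On male-pattern arrays alone both calls of Lpin1 were lost, with differences of -0.56 (adjusted p 0.100) and 0.78 (adjusted p 0.135). In array set 2 both were lost as well (adjusted p 0.310 and 0.676). The fiona-minus-mdx call was also lost with the array set as a block (adjusted p 0.0529), with centred arrays (0.138), with the filter on dim genes (0.0655) and with the mean of the probe sets (0.0532). The second probe set of Lpin1 gave -0.66 and 0.46 without a call (adjusted p 0.0882 and 0.0906).

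The lipases themselves gave less. Pnpla2, the adipose triglyceride lipase that starts lipolysis, averaged 10.10 ± 0.79, 9.45 ± 0.85 and 10.06 ± 0.62 in normal, mdx and fiona muscle. Of its sum of squares within groups 89.1% lay between the array sets, with a difference of -1.30 for set 1 minus set 2. With the set as a block, Pnpla2 was lower in mdx by 0.65 (adjusted p 0.0135). The sets were defined from these same values, and this p-value does not allow for that. Lipe, hormone-sensitive lipase, was dim: its normal arrays ran from 2.93 to 3.24 and its mdx arrays from 2.85 to 2.92. The mdx and normal values did not overlap, but the difference of -0.12 (SE 0.05) had an adjusted p of 0.175.

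**Figure D3:**
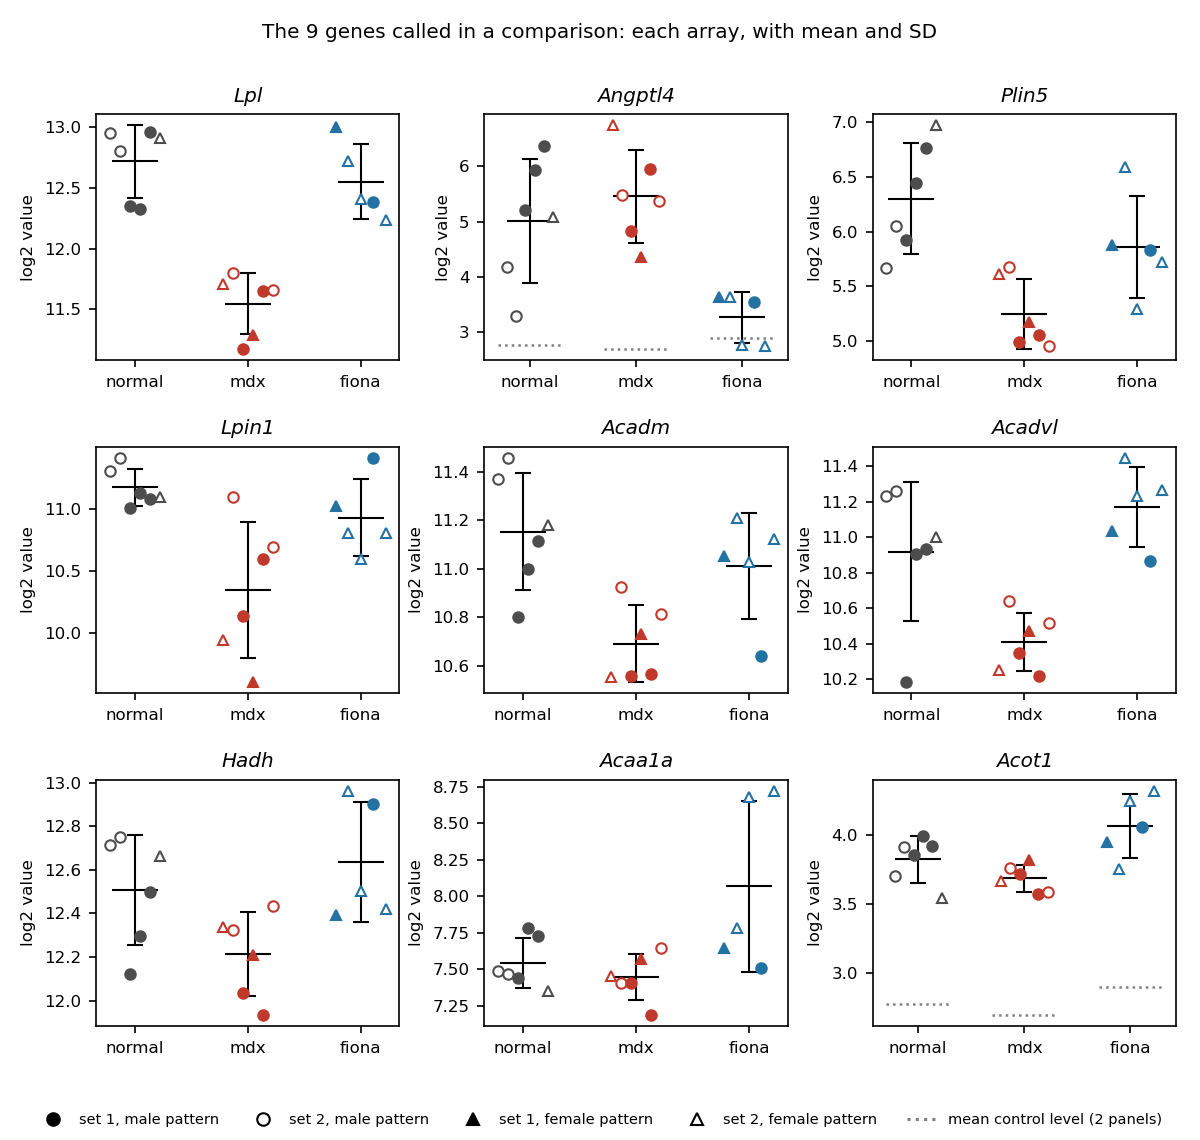
Log2 value of each array (points) with group mean and SD (lines) for the 9 genes called in at least 1 comparison; filled points are array set 1, triangles are arrays with a female pattern, and dotted lines mark the mean control level in the panels that reach it. In the Lpl panel all mdx points lie below all others; in the Acaa1a panel the 2 highest points are fiona arrays 3 and 5.

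Entry into mitochondria was measured through 4 genes, and 0 of them were called in any comparison. Mlycd, malonyl-CoA decarboxylase, which removes the inhibitor of the carnitine step, had the largest mdx difference of the 4, -0.91 (SE 0.34, adjusted p 0.167), with means of 7.90 ± 0.52, 6.99 ± 0.84 and 7.37 ± 0.28. Slc25a20, the carnitine-acylcarnitine carrier, differed by -0.59 (adjusted p 0.234) and Cpt2, the inner palmitoyltransferase, by -0.47 (adjusted p 0.312). Cpt1a, the liver form of the outer enzyme, averaged 5.16 ± 0.47, 5.03 ± 0.38 and 5.52 ± 0.51. The 3 probe sets of Cpt1a differed in sign, from -0.12 to 0.56 for mdx minus normal and from -0.54 to 0.48 for fiona minus mdx.

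The acyl-CoA dehydrogenases open each turn of the cycle, each for its own chain length. Acadm, the medium-chain enzyme, ran from 10.80 to 11.46 with a median of 11.15 on the normal arrays and from 10.55 to 10.93 with a median of 10.65 on the mdx arrays. Arrays 1 to 5 of fiona muscle read 11.06, 11.21, 11.03, 10.64 and 11.12. Of the mdx arrays 4 lay below all normal arrays, and 4 of the fiona arrays lay above all mdx arrays, with fiona array 4 among the mdx values. Acadm fell by 0.46 in mdx (1.38-fold, SE 0.12, adjusted p 0.0319) and was 0.32 higher in fiona than in mdx (1.25-fold, SE 0.12, adjusted p 0.0494). The first call was lost without any of 8 arrays (normal arrays 1, 2, 5 and 6, mdx arrays 1, 3, 4 and 5; adjusted p between 0.0128 and 0.0779 over all 17). The second was lost for 13 of the 17 arrays and kept only without normal array 2, normal array 3, mdx array 2 or fiona array 4 (adjusted p between 0.0218 and 0.107). The mdx call of Acadm was also lost in set 1 (-0.35, adjusted p 0.0894), in set 2 (-0.57, adjusted p 0.0593) and on male-pattern arrays (-0.43, adjusted p 0.100). The fiona call was lost in both sets (0.23 with adjusted p 0.248, 0.36 with adjusted p 0.244) and with the sex pattern as a covariate (0.27, adjusted p 0.120). Centred arrays (adjusted p 0.189), the filter on dim genes (0.0737) and limma's trended, robust variance (0.0660) ended it too. With male-pattern arrays alone, where fiona is represented by array 4, the fiona-minus-mdx difference of Acadm was -0.07.

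Acadvl, the very-long-chain enzyme, ran from 10.18 to 11.26 with a median of 10.97 on the normal arrays and from 10.22 to 10.64 with a median of 10.41 on the mdx arrays. The fiona arrays 1 to 5 read 11.04, 11.45, 11.23, 10.86 and 11.27. All fiona arrays lay above all mdx arrays, and the normal group overlapped mdx through 1 low array, normal array 3. Acadvl was 0.76 higher in fiona than in mdx (1.70-fold, SE 0.16, adjusted p 0.0125), a call kept when any of the 17 arrays was left out. The difference was 0.61 in set 1 (adjusted p 0.0916) and 0.85 in set 2 (adjusted p 0.0319), and 0.43 on male-pattern arrays (adjusted p 0.470). For mdx minus normal it was -0.51 (SE 0.16, adjusted p 0.0807).

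The other dehydrogenases were not called. Acadl, the long-chain enzyme, averaged 11.77 ± 0.14, 11.52 ± 0.16 and 11.71 ± 0.31 in normal, mdx and fiona muscle. Acadsb, which acts on short branched chains, averaged 8.61 ± 0.18, 8.15 ± 0.31 and 8.50 ± 0.23, with adjusted p-values of 0.0807 for mdx against normal and 0.0689 for fiona against mdx. Acads, the short-chain enzyme, followed the array sets: set 1 minus set 2 was -1.26, and 86.5% of its sum of squares within groups lay between them. The electron transfer genes Etfa, Etfb and Etfdh, which carry the electrons of these enzymes to the respiratory chain, differed by -0.45, -0.39 and -0.67 for mdx minus normal (adjusted p 0.131, 0.364 and 0.222). On male-pattern arrays alone Etfa was called lower in mdx than in normal muscle (-0.57, adjusted p 0.0239). Fiona array 4, the single fiona array there, lay 0.67 above the mdx mean (adjusted p 0.0387), and with 1 array this p-value takes its spread from the other groups.

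Of the later steps, Hadh, which oxidises hydroxyacyl-CoA of short and medium length, was called between fiona and mdx. Its normal arrays ran from 12.12 to 12.75 with a median of 12.58 and its mdx arrays from 11.94 to 12.43 with a median of 12.27. Fiona arrays 1 to 5 read 12.40, 12.96, 12.50, 12.90 and 12.42. The fiona arrays 2 and 4 stood above the other fiona arrays, 2 of which lay within the mdx range. Hadh was 0.42 higher in fiona than in mdx (1.34-fold, SE 0.14, adjusted p 0.0289), and the call was lost without mdx array 3, mdx array 5, fiona array 2 or fiona array 4 (adjusted p up to 0.0678). Within the array sets Hadh was not called, at 0.59 in set 1 (adjusted p 0.0513) and 0.26 in set 2 (adjusted p 0.267). It was not called on male-pattern arrays (0.72, adjusted p 0.121) or with centred arrays (0.37, adjusted p 0.108) either. Its other probe sets gave 0.07 and 0.60 without a call.

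Echs1, the enoyl-CoA hydratase, averaged 10.03 ± 0.34, 9.32 ± 0.35 and 9.59 ± 0.84, a difference of -0.71 for mdx minus normal (adjusted p 0.227). The wide fiona spread of Echs1 rested on fiona array 4, which read 8.22 where the others read between 9.63 and 10.51. On male-pattern arrays alone this array stands for fiona by itself. It lay 1.73 below the mean of the male-pattern normal arrays (adjusted p 0.0332), a p-value whose spread comes from the other groups. Acaa2, the mitochondrial thiolase that ends each turn, differed by -0.23 for mdx minus normal and by 0.17 for fiona minus mdx, without a call. Its middle probe set gave -0.31 and 0.15. The dimmest gave -0.46 and -0.27, opposite in sign for fiona minus mdx, and neither was called.

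Hadha and Hadhb, whose products form a single complex and whose starts share the stretch printed above, differed in opposite directions between the array sets. Hadha was lower in set 1 (-1.19), with 79.8% of its sum of squares within groups between the sets, and the brightest probe set of Hadhb was 0.79 higher there, with 79.5%. The second probe set of Hadhb was lower in set 1 (-0.29), like Hadha in sign. The probe sets of Hadhb also differed between the groups: for fiona minus mdx the brighter gave -0.05 (adjusted p 0.920 over all probe sets) and the dimmer 0.36 (adjusted p 0.0320). For mdx minus normal they gave -0.25 and -0.38, and Hadha gave -0.39, without a call.

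The enzymes that prepare unsaturated chains for the cycle were not called on their brightest probe sets. Eci1, an enoyl-CoA isomerase, averaged 9.75 ± 0.46, 9.13 ± 0.47 and 9.66 ± 0.47, with 88.9% of its sum of squares within groups between the array sets. With the set as a block Eci1 was lower in mdx by 0.62 (adjusted p 0.000609), a p-value that does not allow for sets defined from these same values. Decr1, the dienoyl-CoA reductase, ran from 9.13 to 9.56 on the normal arrays and from 8.73 to 9.02 on the mdx arrays, without overlap. Its difference of -0.43 had an adjusted p of 0.127, and a second, dimmer probe set of Decr1 fell by 1.14 (adjusted p 0.0396 over all probe sets). Ech1 and Eci2 differed by -0.37 and -0.14 for mdx minus normal (adjusted p 0.304 and 0.573).

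Acaa1a, a peroxisomal thiolase, and Acot1, a cytosolic thioesterase that cleaves acyl-CoA, were called between fiona and mdx. For Acaa1a the normal arrays ran from 7.35 to 7.78 with a median of 7.48, the mdx arrays ran from 7.19 to 7.65 with a median of 7.43, and the fiona arrays 1 to 5 read 7.65, 7.78, 8.68, 7.51 and 8.72. The fiona arrays 3 and 5 stood far above the other 3, which lay within the normal range. Acaa1a was 0.62 higher in fiona than in mdx (1.54-fold, SE 0.20, adjusted p 0.0259). It passed no longer when fiona array 3 (0.47, adjusted p 0.0717), fiona array 5 (0.46, adjusted p 0.0716) or mdx array 5 (0.57, adjusted p 0.0563) was left out. The call of Acaa1a was lost with the sex pattern as a covariate (0.54, adjusted p 0.0652), and the arrays 3 and 5 both have a female pattern. It was lost within set 1 (0.19, adjusted p 0.334), within set 2, which holds both of them (0.89, adjusted p 0.185), and on male-pattern arrays (0.10, adjusted p 0.758). The second probe set of Acaa1a, near the control level in all groups, gave 0.03.

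Acot1 ran from 3.54 to 3.99 with a median of 3.88 on the normal arrays and from 3.57 to 3.82 with a median of 3.69 on the mdx arrays. On fiona arrays 1 to 5 the values were 3.95, 3.75, 4.25, 4.06 and 4.32. Of the fiona arrays 4 lay above all mdx arrays, and the 3 highest are those with the highest control levels (2.92 for array 3, 2.94 for array 4 and 2.99 for array 5), whose part in the result was not tested. Acot1 was 0.38 higher in fiona than in mdx (1.30-fold, SE 0.10, adjusted p 0.0138), a call kept when any of the 17 arrays was left out. It was kept in set 1 (0.30, adjusted p 0.0378) and lost in set 2 (0.44, adjusted p 0.244) and on male-pattern arrays (0.40, adjusted p 0.0518). Acot2, its mitochondrial relative, was 0.16 higher (SE 0.07, adjusted p 0.0706), with all fiona arrays above all mdx arrays, between 4.48 and 4.65 against 4.37 and 4.48. Such a separation was found for 30.2% of all genes. The mean control level was 2.89 in fiona and 2.70 in mdx, and its part in the Acot2 difference was not tested.

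Ppara and Ppargc1a regulate this pathway. Ppargc1a, the coactivator PGC-1alpha, ran from 7.27 to 8.47 with a median of 7.83 on the normal arrays and from 6.91 to 7.35 with a median of 7.02 on the mdx arrays. The values on fiona arrays 1 to 5 were 7.90, 7.02, 6.52, 7.73 and 6.60. Of the mdx arrays 5 lay below all normal arrays, and the fiona arrays reached beyond the mdx range on both sides. The difference between mdx and normal was -0.75 (SE 0.24, adjusted p 0.0949). All 5 probe sets of Ppargc1a were lower in mdx, by between 0.59 and 2.11, and 0 were called. With the array set as a block Ppargc1a was called lower in mdx (-0.75, adjusted p 0.00841), again without allowance for sets defined from these same values. Its fiona-minus-normal difference was -0.67 (adjusted p 0.210). Ppara, the receptor PPARalpha, averaged 4.10 ± 0.66, 3.41 ± 0.14 and 3.76 ± 0.64, a difference of -0.68 for mdx minus normal (adjusted p 0.245).

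The probe sets other than the brightest gave largely the same sign for mdx. Of the 57 probe sets of the 35 genes, 54 were lower in mdx than in normal muscle and 7 were called, all lower: those of Lpl (2), Plin5, Lpin1, Acadm, Cd36 and Decr1. The 7 are 12.3% of the 57, against 1.37% of all 20380 probe sets called lower. Between fiona and mdx 13 were called higher, 22.8% against 34.1% of all probe sets, and 1 lower, 1.75% against 6.05%. Among the 13 were the second probe sets of Pnpla2 (0.12) and Acadl (0.15), both at or under the control level on every array. The dim probe set of Angptl4 was also among them. Between fiona and normal muscle 0 of the 57 were called.

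**Figure D4:**
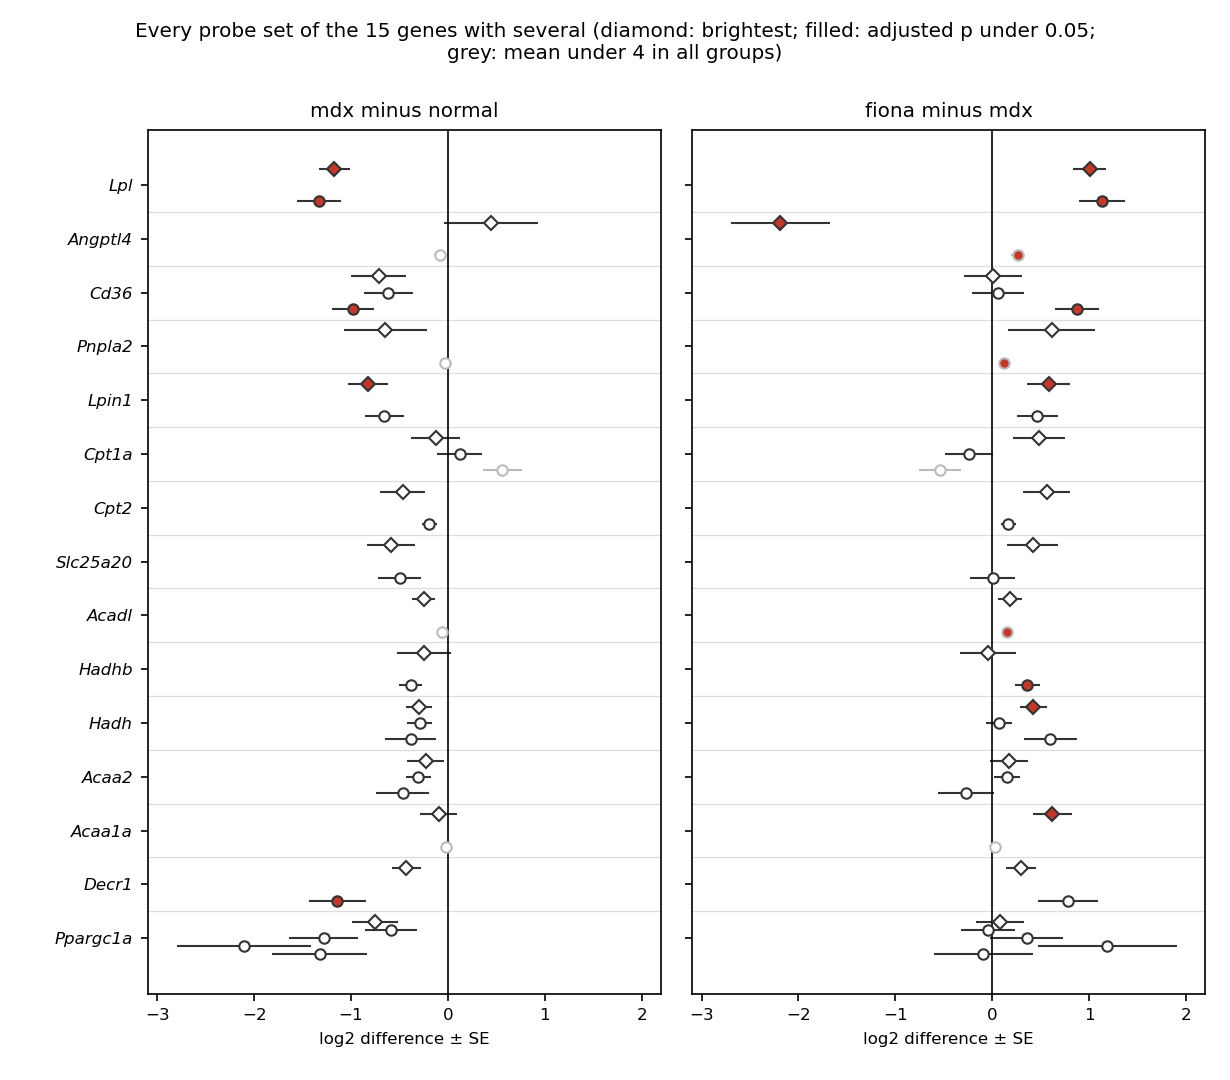
Log2 difference with standard error of every probe set of the 15 genes with more than 1, for mdx minus normal and fiona minus mdx (horizontal axis); diamonds are the brightest probe set of a gene, filled symbols had an adjusted p under 0.05 over all probe sets, and grey symbols averaged under 4 in all groups. The probe sets of Lpl lie together in both panels, and those of Angptl4 and Hadhb lie on opposite sides of 0 in the second.

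The array sets held much of the spread within groups. For 19 of the 35 genes over 50% of the sum of squares within groups lay between the sets, with a median of 53.1% over the 35. This share was not computed for all genes, so it is not shown to be particular to the 35. The component that defines the sets held 42.5% of the variation within groups over all genes. Pnpla2, Acads, Hadha and Slc27a1 were lower in set 1 (set 1 minus set 2 of -1.30, -1.26, -1.19 and -0.97), and Hadhb, Ppara, Slc25a20 and Ppargc1a were higher there, by 0.79, 0.73, 0.67 and 0.62. The sets were found in all genes and came out the same for all 17 arrays when the 35 genes were left out. With the set as a block, 13 of the 35 genes, or 37.1%, were called lower in mdx, where 4.26% of all genes were. These 13 were the 4 named above and Pnpla2, Slc25a20, Mlycd, Acadvl, Etfdh, Echs1, Eci1, Ppara and Ppargc1a. In the same fit 12 were called higher in fiona than in mdx, 34.3% against 34.1% of all genes. The sets were defined from these same values, and the adjusted p-values of this fit do not allow for that.

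Between fiona and normal muscle limma called 0 of the 35 genes and 0 of all 12393, the smallest adjusted p over all genes being 0.106. Unadjusted p-values under 0.05 were found for 6 of the 35, or 17.1%, against 21.2% of all genes. These 6 were Angptl4 (-1.74, SE 0.51), Cd36 (-0.70, SE 0.30), Fabp3 (-0.48, SE 0.22) and Ppargc1a (-0.67, SE 0.25), lower in fiona, and Acaa1a (0.53, SE 0.20) and Acot1 (0.24, SE 0.10), higher. The means of 27 genes were lower in fiona than in normal muscle, 77.1% against 33.8% of all genes. These values do not show that the groups are alike.

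Genes around the pathway, from lists written down for this purpose, are given by their counts, to be read against the shares of all genes called, 1.44% lower in mdx and 32.1% higher in fiona than in mdx. Of 15 regulators measured, 1 was called lower in mdx, Foxo1 (-0.80, adjusted p 0.0423), a forkhead factor of the fasting response. In fiona against mdx 5 were called higher, the largest Ppargc1b (1.21, adjusted p 0.0309), Rxrb (0.46, adjusted p 0.0137) and the receptor gene Esrra (0.43, adjusted p 0.0214). Another of the 5, Ppard, had a fiona mean of 2.33, under the mean fiona control level of 2.89. Of 11 PPAR targets outside the 35 genes, 3 were called lower in mdx. They were Ucp3, a mitochondrial carrier (-1.91, adjusted p 0.0149), Pdk4, the kinase that shuts off pyruvate oxidation (-1.63, adjusted p 0.0214), and Txnip (-1.21, adjusted p 0.00435). The droplet protein Plin2 was called higher in mdx (1.85, adjusted p 0.000114) and lower in fiona than in mdx (-1.73, adjusted p 0.000431), opposite in sign to Plin5 in both comparisons. Of the PPAR targets 3 were called higher in fiona than in mdx, among them Txnip (0.87, adjusted p 0.0149). Ucp3 and Pdk4 were not called there, with fiona minus mdx of -0.06 and -0.13. For fiona minus normal they gave -1.98 (SE 0.45) and -1.76 (SE 0.40), each with an adjusted p of 0.210.

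Of 15 genes of lipid droplets and triglyceride synthesis, 2 were called lower in mdx, Dgat2, which makes triglyceride (-1.64, adjusted p 0.000807), and Plin4 (-0.92, adjusted p 0.00113), beside the higher Plin2. In fiona against mdx 4 were called higher, led by Dgat2 (1.35, adjusted p 0.00660) and Gpam (0.40, adjusted p 0.0232), and including Mogat1, whose fiona mean of 2.29 lay under the control level. Of 15 genes of fatty acid synthesis and malonyl-CoA, Scd1, a desaturase (-1.53, adjusted p 0.0160), and Me1, malic enzyme (-1.43, adjusted p 0.00556), were called lower in mdx. Fiona minus mdx was 0.09 for Scd1 (adjusted p 0.863) and 0.78 for Me1 (adjusted p 0.0441). Fiona minus normal was -1.44 and -0.65, without a call. In fiona against mdx 5 of the 15 were called higher, led by Acacb, the muscle acetyl-CoA carboxylase (1.05, adjusted p 0.0193), and 2 lower, Elovl1 (-1.40, adjusted p 0.0334) and Thrsp (-1.37, adjusted p 0.0115). Of the 5 higher genes Acaca and Fads2 had fiona means of 2.19 and 2.83, under the control level, and Elovl6 one of 2.93, with differences of 0.11, 0.13 and 0.14. Among 16 other acyl-CoA synthetases, transporters and thioesterases, Fabp5, a binding protein of macrophages and other cells (2.73, adjusted p 9.56e-05), and Acot9 (1.27, adjusted p 0.0125) were called higher in mdx, where the muscle form Fabp3 had a difference of -0.61 without a call. In fiona against mdx 4 of the 16 were called lower, among them Fabp5 (-1.94, adjusted p 0.00335), and 4 higher, of which Slc27a5 had a fiona mean of 2.46, under the control level.

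The peroxisomal list gave 1 call of 15 in mdx, Pex11a (-0.38, adjusted p 0.00419), and 3 higher in fiona against mdx, 2 of them under the control level: Acaa1b and Acox3, with fiona means of 2.65 and 2.38 and differences of 0.20 and 0.09. Of 18 mitochondrial genes outside fatty acid oxidation, 2 were called lower in mdx, Sdha (-0.57, adjusted p 0.0285) and Fh1 (-0.39, adjusted p 0.00566), both of the citrate cycle. In fiona against mdx 5 of the 18 were called higher, including Sdha (0.50, adjusted p 0.0195). Their median difference in mdx was -0.21, where the 35 genes had -0.46. Of 14 genes of branched-chain and other acyl-CoA dehydrogenase steps, Pcca (-0.72, adjusted p 0.0208) and Mmut (-0.53, adjusted p 0.0457) were called lower in mdx and 3 were called higher in fiona against mdx. Their median difference in mdx was -0.47. In fiona against normal muscle 0 genes of these 8 lists were called, where 0 of all genes were. That does not show that the groups are alike.

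RNA levels of markers of other cell types differed between the groups, and cells were not counted. Of 9 macrophage markers measured, 7 were called higher in mdx and 8 lower in fiona against mdx. Their summed level on the linear scale ran from 206 to 396 in normal, from 2751 to 7064 in mdx and from 275 to 664 in fiona muscle. Of these markers 3 lay at or under the control level on all normal and on all fiona arrays, and 0 did in mdx. Of 7 fibroblast markers 2 were called higher in mdx and 5 lower in fiona against mdx, with summed levels from 8052 to 16141, from 16256 to 28861 and from 3289 to 13218. Of 10 general muscle fibre markers 0 were called in mdx, with a median difference of -0.15, and 2 were called higher in fiona against mdx, the larger being Mb, myoglobin (0.57, adjusted p 0.0135). The part of the macrophage and fibroblast values in the differences of the 35 genes was not tested.

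Fibre type and fat were checked the same way. Of 10 oxidative and slow fibre markers, 2 were called lower in mdx and 2 higher. Myh2, the fast oxidative myosin, was lower by 2.40 (adjusted p 0.0288) and Myl3 by 2.73 (adjusted p 0.00223), and Tnni1, the slow troponin, was higher by 4.16 (adjusted p 0.000240). From mdx to fiona Myh2 rose by 2.56 (adjusted p 0.0135) and Tnni1 was lower by 4.44 (adjusted p 0.000274). The list as a whole had 2 genes called higher and 5 lower in that comparison. Its summed level ran from 8851 to 24324 in normal, from 2553 to 12371 in mdx and from 6053 to 25639 in fiona muscle. The medians were 14697, 4652 and 17074. Of 5 adipocyte markers measured, which also bear on Lpl and Lipe, 0 were called in mdx and 1, Lep, with group means under the control level, was called higher in fiona against mdx. Their summed level ran from 5066 to 10547 in normal, from 4960 to 10132 in mdx and from 4179 to 9450 in fiona muscle, carried by Fabp4, which endothelial cells also express. Adipoq, which encodes the hormone adiponectin, averaged 6.90, 5.05 and 4.02 (adjusted p 0.117 for mdx against normal). Of 9 endothelial markers 0 were called in any comparison, with summed levels from 953 to 2105, from 831 to 1486 and from 1030 to 1976. The part of the fibre type values in the differences of the 35 genes was not tested.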

How the data were processed

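The authors deposited log2 expression values per probe set of 17 Affymetrix arrays. The submitters' processing notes name RMA and GCRMA, and the choice between them was not given in the sources used here. Of 22690 probe sets, 64 controls, 691 with several symbols and 1555 with none were left out. The brightest probe set of each of 12393 genes was tested in limma 3.58.1 (R 4.3.3), in a single fit of the 3 group means, without a filter and with Benjamini-Hochberg adjustment over all genes at 0.05. The fit was tried on simulated data with known changes and independent noise for each gene and array. Array sets, sex patterns and differences in control level were not simulated, so the trial does not cover them. The genes, the lists and the rule for named genes were chosen with earlier results of these data known. By that rule every called member is described, and at most 3 called genes per list and comparison are named, largest difference first. Some genes were named after their values were seen: of the marker lists, in the closing section, and beyond those 3 in the other lists. The arrays are labelled biological replicates; nothing more says how the animals were kept apart. Replicate numbers were tried as a block, and it is not known whether they pair the animals. Deviations of same-numbered mdx and normal arrays correlated between 0.09 and 0.61, and these arrays lay in the same array set. The range was -0.42 to 0.30 for fiona and mdx and -0.49 to 0.48 for fiona and normal. Promoter sequences are RefSeq's (GRCm38.p6). Alternatives changed the normalization, filter, probe set, variance model, sex pattern, array set and arrays included. Figures were drawn with matplotlib 3.10.9.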

Additional observations from a re-analysis of the deposited data

Results flagged for a closer look

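Across the 35 genes and 3 groups, 105 sets of arrays were checked for a lone array whose gap to the nearest other was large against the range of its group, and 6 had one. Chance gives about 1 in 20. In mdx array 1, Cd36 read 8.84 where the other mdx arrays read 10.15 to 10.74. In normal array 6, Lipe read 3.24 where the others read 2.93 to 2.99. In mdx array 4, Cpt1a read 5.78 where the others read 4.77 to 5.09. In fiona array 2, Cpt2 read 9.89 where the others read 8.85 to 9.14. In normal array 3, Acadvl read 10.18 where the others read 10.90 to 11.26. In fiona array 1, Ppara read 4.89 where the others read 3.30 to 3.58.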

How the results depend on the processing

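The count of genes called lower in mdx than in normal muscle was 4. It was 9 within array set 1 (25.7% of the 35, where 15.1% of all genes were called lower), 13 with the array set as a block (37.1% against 4.26%), 9 with arrays centred on their median (25.7% against 12.1%), and between 2 and 5 when each array was left out, falling to 2 without normal array 1, 2, 5 or 6 or mdx array 1 or 3. The count called higher in fiona than in mdx was 7. It was 12 with the array set as a block (34.3% against 34.1%), 1 within array set 2 (2.86% against 0.105%), 1 on male-pattern arrays (2.86% against 9.89%) and 4 with centred arrays (11.4% against 11.4%). Leaving out each array gave 3 to 9, with 3 without mdx array 5 and 4 without mdx array 3 or fiona array 5. For the fits that left out 1 array, in every comparison, the share of all genes called was not counted. Whether those counts follow the background therefore cannot be read from them. The 1 gene called lower in fiona than in mdx, Angptl4, was not called within array set 1, within array set 2, on male-pattern arrays or with the replicate block, a count of 0 in each. Against normal muscle fiona had 0 calls, except 1 lower on male-pattern arrays (Echs1, from a single fiona array) and 1 higher without fiona array 2 (Acot1), so that leaving out each array gave 0 to 1. Centring the arrays changed the calls over all genes in fiona against mdx from 3977 higher and 841 lower to 1417 and 753.

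The replicate number as a block left 3 genes called lower in mdx (8.57% against 1.36% of all genes) and 3 higher (8.57% against 1.49%) and 0 lower (against 2.61%) in fiona against mdx. It ended the calls of Lpin1 in both comparisons and of Acadm, Acaa1a, Acot1, Hadh and Angptl4 in fiona against mdx. Only 1 of 16 pairs of same-numbered arrays correlated best with its own number, and the numbers are not known to pair the animals. Same-numbered mdx and normal arrays lay in the same array set, so between these groups the number follows the sets. Values that changed sign with a call on either side were the dim probe set of Angptl4 (0.26), Acadm on male-pattern arrays (-0.073) and the second probe set of Hadhb (0.36), all for fiona minus mdx; the cause was not tested. Some alternative changed the sign of 6, 18 and 23 of the 35 differences in mdx against normal, fiona against mdx and fiona against normal. Signals near the control level, as for Lipe, Acot1 and Angptl4 in fiona, limit what these arrays can show.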
